A study of Homo sapiens with 39 samples.

Results

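The genes described here are 10 of pigment production, out of 60671 gene identifiers in the deposited table, and were chosen by name. They are PMEL and MLANA, which encode melanosome matrix and membrane proteins, the tyrosinase family TYR, TYRP1 and DCT, the transporters OCA2, SLC45A2 and SLC24A5, and the receptors MC1R and GPR143. All were read in 39 RNA-seq libraries of A375 and WM115, which are established human melanoma lines. Both lines have wild-type libraries (WT) and libraries of clones that lack an enhancer region of SOX10, labelled R1 or R4. SOX10 encodes a transcription factor of neural crest cells and melanocytes.

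A375 has 4 WT libraries. Its R1-deleted clones 1.1 and 1.2 have 3 and 4 libraries, and its R4-deleted clones 4.1 and 4.2 have 4 and 3. WM115 has 4 WT libraries. Its R1-deleted clones 1.1 and 1.2 have 5 and 3 libraries, and its R4-deleted clones 4.1 and 4.2, like a further clone 1.3, have 3 each. Clone 1.3 is numbered like the R1 clones in its title and carries the R4 deletion in its genotype label, so it was kept as a group of its own. No drug or other treatment is given in the labels. Libraries of a group repeat 1 clone, and nothing in the labels says that they came from separate cultures, so a p-value over libraries measures the spread between these samples and a difference belongs to a clone before it belongs to a deletion.

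Melanin is made in melanosomes, lysosome-related organelles in which PMEL forms a fibrillar matrix. TYR oxidises tyrosine, and the products are carried towards eumelanin by DCT and TYRP1. MC1R, a receptor for melanocortins at the cell surface, raises cAMP, and MITF, a transcription factor that SOX10 activates in melanocytes, drives many of these genes by binding to E-box sequences such as CATGTG. Melanomas differ widely in how much of this programme they keep.

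In GENCODE 29 (GRCh38), the structural genes are PMEL at chr12:55954105-55973317 (minus strand) and MLANA at chr9:5890802-5910606 (plus strand). The tyrosinase family is TYR at chr11:89177452-89295759 (plus strand), TYRP1 at chr9:12685439-12710290 (plus strand) and DCT at chr13:94436808-94479682 (minus strand). The transporters are OCA2 at chr15:27754875-28099358 (minus strand), SLC45A2 at chr5:33944616-33984730 (minus strand) and SLC24A5 at chr15:48120972-48142672 (plus strand), and the receptors are MC1R at chr16:89912119-89920977 (plus strand) and GPR143 at chrX:9725346-9786297 (minus strand).

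The RefSeq promoter table used (GRCh38.p14) matched 8 of the 10 members, all but PMEL and SLC45A2. The 250 bases before each start were searched on both strands for CATGTG. It was present in 7 of the 8 members (all but MLANA) and in 9.42% of all 35116 windows of that length. The longer TCATGTG, each match of which is also a CATGTG match, was present in 5 members (TYR, TYRP1, DCT, SLC24A5 and GPR143) and in 2.52% of all windows. CACGTG, the other common E-box, was in none of the 8 and in 6.34% of all windows. The SOX-type motifs ACAAAG and ACAATG were present in 1 member each, OCA2 and SLC24A5, and in 13.7% and 9.29% of all windows. A match describes the letters only. The 30 bases around the match follow for the members whose levels are compared, read on the gene's own strand with CATGTG or its reverse complement CACATG in capitals:

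TYR, chr11:89177759-89177788, plus strand: agaaaagtcagtCATGTGcttttcagagga

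TYRP1, chr9:12693229-12693258, plus strand: ttggaagggaatCATGTGctgatcaagtcc

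DCT, chr13:94479799-94479828, minus strand: tgcactttgggtCATGTGctaatgatgagg

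DCT, chr13:94479880-94479909, minus strand: gtttggctggagCACATGagcccagataaa

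SLC24A5, chr15:48120963-48120992, plus strand: aaggagactcctCACATGatccagtttaat

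GPR143, chrX:9765891-9765920, minus strand: agaggcccagggCACATGatgccgccccca

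MC1R, chr16:89918786-89918815, plus strand: tcacgcccccggCATGTGgccgccctcagt

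The printed match began 104 bases before the RefSeq start in TYR and 144 bases before it in TYRP1. In DCT the printed matches began 134 and 215 bases before the start, in SLC24A5 15, in GPR143 61 and in MC1R 64. The TYR, GPR143 and MC1R stretches lie inside exons of longer transcripts in GENCODE 29, and 21 bases of the SLC24A5 stretch do. Read on the strand that carries CATGTG, the match in MC1R is not preceded by T, unlike those printed for the other genes. A further match that is not printed began 12 bases before the start in TYR, 11 in TYRP1 and 33 in GPR143. Of these, the one in GPR143 alone is preceded by T on the strand that carries CATGTG.

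Read depth is unknown, since the values are TPM, which give each gene's length-corrected part of a library's total. Mitochondrially encoded genes took 0.968% to 4.92% of TPM in A375 and 4.71% to 19.4% in WM115. Lineage genes outside the members (SOX10, MITF, ERBB3, PAX3, S100B, S100A1) had a median of at least 1 TPM in both lines, and KIT was listed at 0 in all WM115 libraries. One library stood apart: library 3 of WM115 clone 1.2 had 9.56 TPM of SOX10, against 279 and 272 TPM in libraries 1 and 2, and a summed level of the lineage genes of 67.3 TPM, against 1095 and 1106 TPM in the other two. MLANA, TYR, DCT and OCA2 were all listed at 0 in it. Calls in clone 1.2 are therefore given below with and without that library. The library also enters the spread shared by the tests of the other WM115 clones.

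The first comparison was between the WT libraries of the 2 lines. In WM115, 8 members were at or above 1 TPM on average, and in A375 only MC1R and PMEL were. DCT, the dopachrome tautomerase, was the most abundant member in WM115 WT, with 785, 681, 215 and 1685 TPM in libraries 1 to 4 and a mean of 842 ± 615 TPM (SD, n = 4). In A375 WT it lay between 0.066 and 0.166 TPM. Every WM115 WT library lay above every A375 WT library, and the log2 difference, here and below on the log2(TPM + 1) scale, was 9.21 (SE 0.49). This scale understates the change of a gene that is low in 1 of the groups.

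TYRP1, which encodes a tyrosinase-related oxidase, had 57.6, 36.4, 10.6 and 127 TPM in WM115 WT and 0.059 to 0.828 TPM in A375 WT. SLC24A5, a cation exchanger of the melanosome and trans-Golgi membranes, had 34.9, 31.6, 10.6 and 54.1 TPM in WM115 WT. In A375 WT it had at most 0.411 TPM. Both genes were separated between the lines without overlap, with log2 differences of 4.98 (SE 0.60) and 4.69 (SE 0.40). The share of all genes with such a separation, which DCT showed too, is not given here. Differences between the lines were common, with 8855 of 16126 tested genes at an unadjusted limma p under 0.05.

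MLANA, a melanosome membrane protein used as a melanoma marker, had 29.7, 15.1, 3.67 and 54.4 TPM in WM115 WT and 0.195 to 0.64 TPM in A375 WT. PMEL had 15.9, 12.3, 8.15 and 41.1 TPM in WM115 WT and 0.291 to 1.62 TPM in A375 WT. TYR, the rate-limiting oxidase, had 6.48, 4.11, 1.17 and 23.5 TPM in WM115 WT. It was listed at 0 in all 4 A375 WT libraries, and in 17 of the 18 A375 libraries in all, the other being at 0.023 TPM.

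SLC45A2, a melanosomal transporter, had 6.37, 1.3, 0.606 and 10.01 TPM in WM115 WT and 0.067 to 0.306 TPM in A375 WT. The members called higher in WM115 WT were 7 (limma p under 0.05 after Benjamini-Hochberg adjustment over all genes tested, and a log2 difference of at least 1), where 13.1% of the 16126 genes tested were. These members passed the filter on low values only through WM115, so their number and their differences are a description and no p-value is given for them. The log2 differences of MLANA, PMEL, TYR and SLC45A2 were 3.79, 3.12, 2.75 and 1.79.

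**Figure D1:**
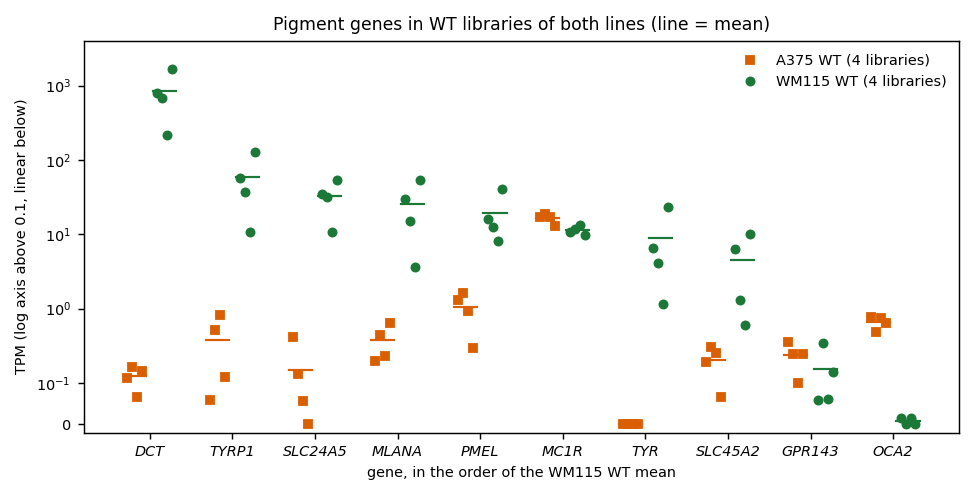
TPM of each gene in the 4 WT libraries of A375 (squares) and of WM115 (circles), with the mean as a line, on an axis that is logarithmic above 0.1 TPM. DCT reached 1685 TPM in WM115 and at most 0.166 TPM in A375, while MC1R lay between 9.72 and 18.6 TPM in both lines.

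MC1R and OCA2 did not follow that order. MC1R had 12.8 to 18.6 TPM in A375 WT and 9.72 to 13.4 TPM in WM115 WT, ranges that overlap. Its log2 difference of -0.48 (95% interval -0.84 to -0.12, limma adjusted p 0.0312) was below the size set for a call. OCA2, an anion channel that sets melanosome pH, was under the filter in both lines and was not tested. It had 0.486 to 0.78 TPM in A375 WT and at most 0.016 TPM in WM115 WT, so that its higher libraries were those of A375.

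By their means, the members stood in WM115 WT in the order DCT, TYRP1, SLC24A5, MLANA, PMEL, MC1R, TYR, SLC45A2, GPR143 and OCA2. Neighbours in that order overlapped, except DCT and TYRP1, SLC45A2 and GPR143, and GPR143 and OCA2. In A375 WT the order was MC1R, PMEL, OCA2, TYRP1, MLANA, GPR143, SLC45A2, SLC24A5, DCT and TYR. There MC1R stood clear of PMEL, DCT stood clear of TYR, and the other neighbours overlapped.

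Within WM115 WT, the pigment genes moved together from library to library. Library 4 was the highest and library 3 the lowest for 7 members (PMEL, MLANA, TYR, TYRP1, DCT, SLC45A2 and SLC24A5). The ratio of library 4 to library 3 was 20.2 for TYR, 16.5 for SLC45A2, 14.8 for MLANA, 12.0 for TYRP1, 7.84 for DCT, 5.09 for SLC24A5 and 5.05 for PMEL. MITF was also highest in library 4, at 164 TPM, and lowest in library 3, at 60.5 TPM. SOX10 went the other way by a little, with 449 TPM in library 4 and 485 TPM in library 3.

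The SD of log2(TPM + 1) among the 4 WT libraries was 1.53 for MLANA, 1.45 for TYR, 1.45 for TYRP1, 1.33 for SLC45A2, 1.22 for DCT, 0.95 for SLC24A5 and 0.94 for PMEL. The median over the 16997 genes tested in WM115 was 0.20, and these 7 SDs lay at the 98.4th to 99.8th percentile. For MC1R the SD was 0.18. All tests against WM115 WT below carry this spread.

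The next question was how each clone differed from WT of its line. In R4 clone 4.1 of WM115, most members fell to a small part of their WT level. Of the 9 members tested, 7 were called lower than WT (PMEL, MLANA, TYR, TYRP1, DCT, SLC45A2, SLC24A5) and none higher, where 4.37% of all 16997 genes tested were called lower. Each of the 7 had all 3 clone libraries below all 4 WT libraries, a separation that 23.1% of tested genes showed in that direction. MC1R and GPR143 were not called. In bulk RNA, fewer cells that express a gene and less RNA per cell cannot be told apart.

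DCT had 7.08, 2.37 and 13.7 TPM in the clone 4.1 libraries, all far under the lowest WT library at 215 TPM. Its log2 difference was -6.50 (SE 1.21, limma adjusted p 0.00103), the largest among the members in this clone. TYR was listed at 0 in all 3 libraries, with a log2 difference of -2.75 (SE 0.75, limma adjusted p 0.0137). No fold is given for TYR, because the clone is at 0.

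TYRP1 had 0.841, 0.672 and 2.09 TPM, against at least 10.6 TPM in WT. Its log2 difference was -4.33 (SE 0.94, limma adjusted p 0.00301). All 3 enzymes of the family were therefore lower in every library of the clone.

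SLC24A5 had 0.65, 0.543 and 0.732 TPM, with a log2 difference of -4.17 (SE 0.77, limma adjusted p 0.000940). SLC45A2 was listed at 0 in libraries 1 and 2 and had 0.13 TPM in library 3. The log2 difference of SLC45A2 was -1.998 (SE 0.58, limma adjusted p 0.0181). Both transporters fell, SLC45A2 from a WT range that itself began at 0.606 TPM. The SLC45A2 call was lost without library 1 or 2 of the clone (both -1.97), without WT library 1 (-1.72) or 4 (-1.53), and with the mitochondrial set as a term (-1.92).

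MLANA had 0.023, 0.152 and 0.068 TPM, with a log2 difference of -4.13 (SE 0.80, limma adjusted p 0.00139). PMEL had 1.2, 1.27 and 1.02 TPM, a narrow range beside the WT libraries. Its log2 difference was -2.99 (SE 0.79, limma adjusted p 0.0112). CDK2, which overlaps PMEL on the opposite strand, had 51.0 to 72.1 TPM in clone 4.1 and 113 to 199 TPM in WT, also without overlap. The labels do not say whether reads were counted by strand, and the part of CDK2 in the PMEL value was not tested.

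R4 clone 4.2 of WM115 had nearly the same picture, with 6 of the 9 tested members called lower (4.08% of all genes). DCT had 3.89, 8.72 and 2.71 TPM and a log2 difference of -6.89 (SE 1.21, limma adjusted p 0.000959). The median of the 307 other tested genes of chromosome 13 was -0.58 in this clone, beside -0.10 over all genes. TYRP1 had 0.594, 0.234 and 0.648 TPM and a log2 difference of -4.84 (SE 0.94, limma adjusted p 0.00190). TYR had 0.03 TPM in library 1 and was listed at 0 in libraries 2 and 3, with a log2 difference of -2.73 (SE 0.75, limma adjusted p 0.0162).

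SLC24A5 and PMEL lay above their clone 4.1 libraries in every library of clone 4.2, a difference between clones that was not tested. SLC24A5 had 3.52, 3.1 and 1.39 TPM and a log2 difference of -3.06 (SE 0.77, limma adjusted p 0.00958). MLANA had 0.167, 0.144 and 0.08 TPM and a log2 difference of -4.07 (SE 0.80, limma adjusted p 0.00213). SLC45A2 had 0.091, 0.312 and 0.029 TPM and a log2 difference of -1.87 (SE 0.58, limma adjusted p 0.0285).

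The weakest of these calls hung on single libraries. For TYR in clone 4.2 the call was lost without library 2 of the clone (-2.73, limma adjusted p 0.0554) or without WT library 4 (-2.11, limma adjusted p 0.0572). For SLC45A2 in clone 4.2 it was lost without any 1 of the clone's libraries or WT library 1 or 4, with log2 differences of -1.40 to -1.97. Within the high mitochondrial set, TYR, SLC45A2 and SLC24A5 of clone 4.2 were not called, at log2 differences of -2.75, -1.84 and -3.23 (limma adjusted p 0.119, 0.157 and 0.0755). With no filter on low values, SLC45A2 was not called either, at -1.87 (limma adjusted p 0.0699).

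PMEL had 2.71, 4.46 and 2.24 TPM in clone 4.2, all below the lowest WT library at 8.15 TPM. The log2 difference was -2.09 (SE 0.79), and PMEL missed the call at a limma adjusted p of 0.0678. It passed when WT library 3 was left out, at a log2 difference of -2.39, without library 3 of clone 1.3, and when only the 2 groups were fitted. Each of the 7 members named for clone 4.1 had all clone 4.2 libraries below all WT libraries, as 20.7% of tested genes did.

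GPR143, a receptor of the melanosome membrane, went the opposite way in clone 4.2. Its libraries had 2.26, 1.26 and 6.08 TPM, and those of WT had 0.059, 0.347, 0.062 and 0.141 TPM. The groups did not overlap, and the log2 difference was 1.71 (SE 0.26). It met the rule for a call, as 2.52% of tested genes did in that direction. These 3 libraries were the only ones in the series with at least 1 TPM of GPR143. The gene passed the filter through them alone, so the call is a description and no p-value is given for it. It was not tested once any 1 of them was left out. With no filter it was also called higher, at the same log2 difference. In clone 4.1 it had 0.292, 0.267 and 0.208 TPM, within the WT range. In clone 1.2 it had 0.198 to 0.926 TPM, and in clone 1.3 0.203 to 0.628 TPM. There 2 of 3 and 1 of 3 libraries lay above all WT libraries. In clone 1.1 all 5 libraries lay below WT, at 0 to 0.047 TPM. These levels are under 1 TPM, and no share of all genes is given for these separations.

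The fall of the pigment genes in the R4 clones came with low MITF, while SOX10 overlapped its WT range. MITF had 11.2, 9.25 and 11.1 TPM in clone 4.1 and 15.2, 15.8 and 18.3 TPM in clone 4.2, against 60.5 to 164 TPM in WT. The log2 differences were -3.40 (SE 0.61, limma adjusted p 0.000793) and -2.80 (SE 0.61, limma adjusted p 0.00412). SOX10 had 360 to 465 TPM in clone 4.1 and 321 to 506 TPM in clone 4.2, against 449 to 553 TPM in WT. In each clone 2 of the 3 libraries lay below all WT libraries. The log2 differences of SOX10 were -0.33 and -0.28 (both SE 0.70), and it was called in neither. That SE carries the spread of clone 1.2, where the SD of log2(TPM + 1) was 2.72. The SD was 0.14 in WT, 0.19 in clone 4.1 and 0.34 in clone 4.2. The missing calls therefore do not show that SOX10 was unchanged. The mitochondrial share moved with the groups too: all 4 WT libraries were in the high set of WM115, as were 1 of the 3 libraries of clone 4.1 and 2 of the 3 of clone 4.2. With that set as a term in the fit, 6 members were called lower in each clone. The share of all genes called lower in that fit is not given here. Within the high set alone, 3 of the 8 members tested were called in clone 4.2. The part of MITF and of the mitochondrial share in the result was not tested.

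**Figure D2:**
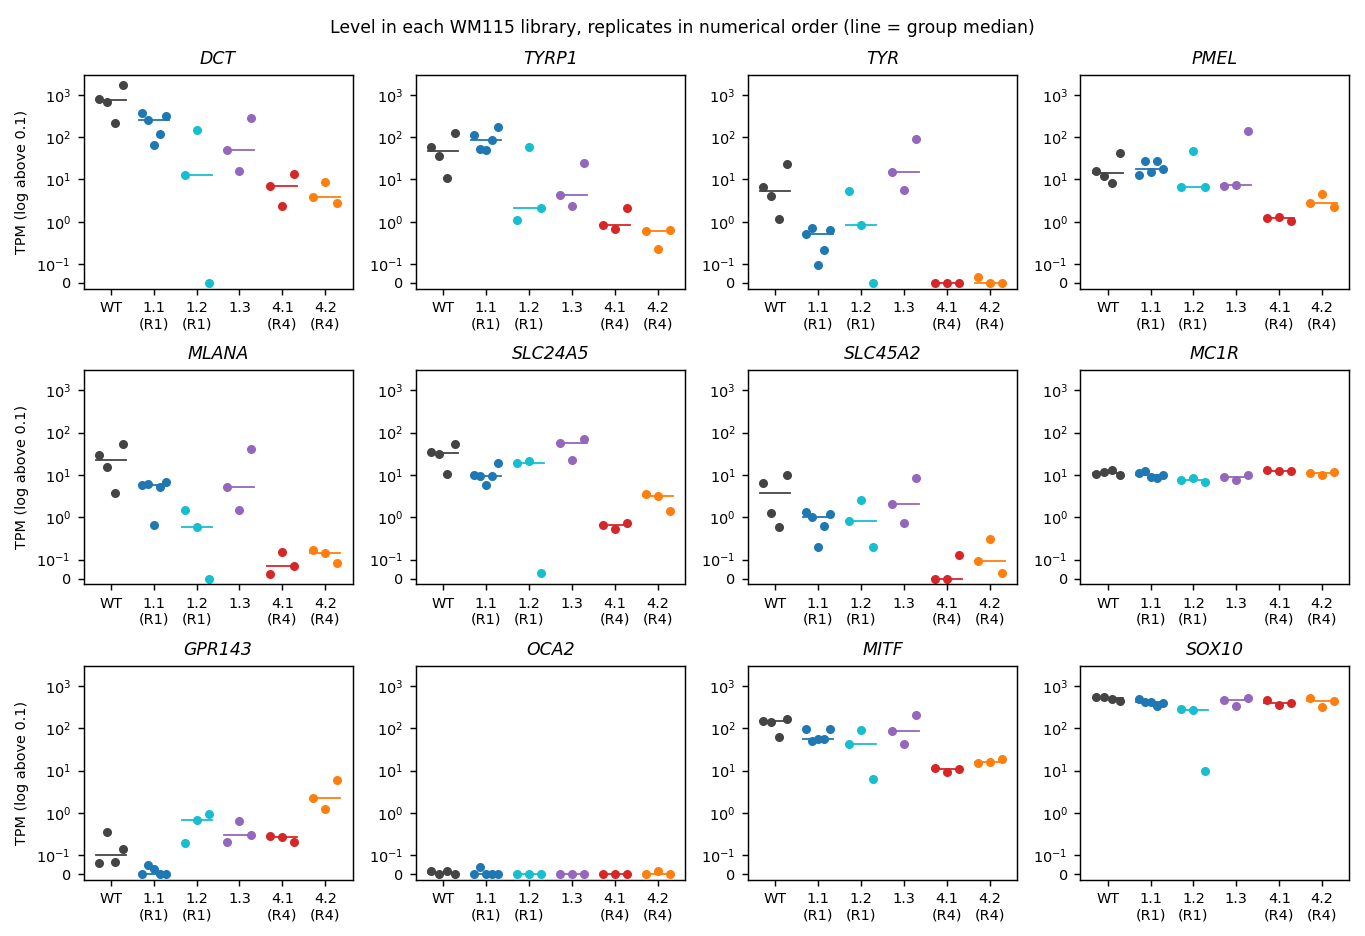
TPM in each of the 21 WM115 libraries for the 10 members, MITF and SOX10, by group, with the group median as a line, on axes that are logarithmic above 0.1 TPM. DCT lies between 2.37 and 13.7 TPM in the R4 clones and at 215 TPM or more in WT, while MC1R lies between 6.87 and 13.4 TPM in all groups.

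MC1R kept an even level through the R4 clones. In WM115 it had 12.9, 12.2 and 12.6 TPM in clone 4.1 and 11.1, 9.76 and 11.6 TPM in clone 4.2, within the range of the WT libraries at 10.7, 11.9, 13.4 and 9.72 TPM. The log2 differences were 0.14 (95% interval -0.15 to 0.43) and -0.07 (95% interval -0.36 to 0.22), so that changes of the size seen for the 7 lower members lay outside both intervals. The median of the 816 other tested genes of chromosome 16 was -0.46 in clone 4.1 and -0.28 in clone 4.2, beside -0.10 over all genes in each. MC1R overlaps TCF25 and a readthrough gene, AC092143.1, on its own strand, and whether reads were shared with them was not tested.

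Among the R1 clones, fewer members were called. In WM115 clone 1.1, TYR alone was called lower, 1 of 9 members tested against 3.66% of all genes. TYR had 0.521, 0.713, 0.094, 0.211 and 0.655 TPM in libraries 1 to 5, all below the lowest WT library at 1.17 TPM. The log2 difference of TYR was -2.24 (SE 0.66, limma adjusted p 0.0210). The call was lost with WT library 1 (-2.19) or WT library 4 (-1.62) left out, with no filter (-2.24, limma adjusted p 0.0538), with the mitochondrial set as a term (-2.25) and within the high mitochondrial set (-2.25). The members called were 3 with WT library 3 left out (MLANA, TYR and SLC45A2).

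TYRP1 went the other way in clone 1.1, with 112, 53.7, 49.4, 84.3 and 172 TPM, of which 1 library lay above the highest WT library. The log2 difference was 1.01 (SE 0.82, limma adjusted p 0.404), inside the spread of the libraries. PMEL had 12.8, 27.6, 14.7, 27.8 and 17.2 TPM, all within the WT range.

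DCT had 376, 249, 66.2, 119 and 309 TPM in clone 1.1, of which 2 libraries lay below all WT libraries. SLC24A5 had 9.87, 9.55, 5.85, 9.67 and 18.8 TPM, of which 4 lay below all WT libraries. MLANA had 5.76, 6.04, 0.658, 5.15 and 6.85 TPM, and its low library 3 was also the lowest for TYR, TYRP1, DCT, SLC45A2 and SLC24A5. DCT, SLC24A5 and MLANA did not pass the test. Their log2 differences were -1.82, -1.41 and -1.86, at limma adjusted p-values of 0.231, 0.142 and 0.0646. MITF had 51.0 to 98.1 TPM in this clone, with a limma adjusted p of 0.297.

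In WM115 clone 1.2, MLANA and DCT were called lower, 2 of 9 members tested against 3.11% of all genes. MLANA had 1.51 and 0.603 TPM in libraries 1 and 2 and was listed at 0 in library 3, with a log2 difference of -3.57 (SE 0.80, limma adjusted p 0.00577). DCT had 13.0, 148 and 0 TPM, with a log2 difference of -5.70 (SE 1.21, limma adjusted p 0.00425). Without library 3 both stayed called, the DCT difference became -3.86, and 0.63% of all genes were called lower. MITF had 41.4, 88.4 and 6.16 TPM, with a log2 difference of -2.01 (SE 0.61, limma adjusted p 0.0253). The MITF call was lost without library 3, at -0.97 (limma adjusted p 0.240).

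Libraries 1 and 2 of clone 1.2 differed from each other by member. TYRP1 had 1.1 TPM in library 1, 59.2 in library 2 and 2.13 in library 3. TYR had 5.48, 0.82 and 0 TPM, the reverse order in libraries 1 and 2. PMEL had 6.75, 47.1 and 6.67 TPM, and SLC24A5 had 19.5, 20.98 and 0.03 TPM. Library 2 was thus rich in TYRP1, DCT and PMEL, and library 1 in TYR. MC1R had 7.78, 8.29 and 6.87 TPM, all below WT, with a log2 difference of -0.52 (95% interval -0.81 to -0.23, limma adjusted p 0.0141) that was under the size set for a call. Without library 3 the MC1R difference was -0.45. With all libraries, the median of the 816 other tested genes of chromosome 16 was -0.23, beside -0.02 over all genes.

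In WM115 clone 1.3, whose region is labelled in conflicting ways, 0 members were called by limma, where 0.618% of all genes were called and 2212 had an unadjusted p under 0.05. TYR had 15.2, 5.71 and 91.6 TPM, the last being the highest level of TYR in the series. DCT had 50.7, 15.7 and 281 TPM, and TYRP1 had 4.34, 2.31 and 24.7 TPM, each with 2 libraries below all WT libraries. The log2 differences were 1.69 (limma adjusted p 0.348) for TYR, -3.41 (limma adjusted p 0.225) for DCT and -2.47 (limma adjusted p 0.262) for TYRP1.

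Library 3 of clone 1.3 was the highest of its group for 8 members (all but OCA2, which was listed at 0 in all 3 libraries, and GPR143). PMEL reached 142 TPM there, against 7.16 and 7.49 TPM in libraries 1 and 2. SLC24A5 had 57.1, 22.7 and 70.6 TPM, MLANA 5.3, 1.46 and 41.9 TPM, and SLC45A2 2.1, 0.728 and 8.39 TPM. MITF followed the same order, with 85.0, 42.0 and 202 TPM. CDK2 had 301 TPM in library 3 and 101 to 138 TPM in the others, and its part in the PMEL value was not tested.

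**Figure D3:**
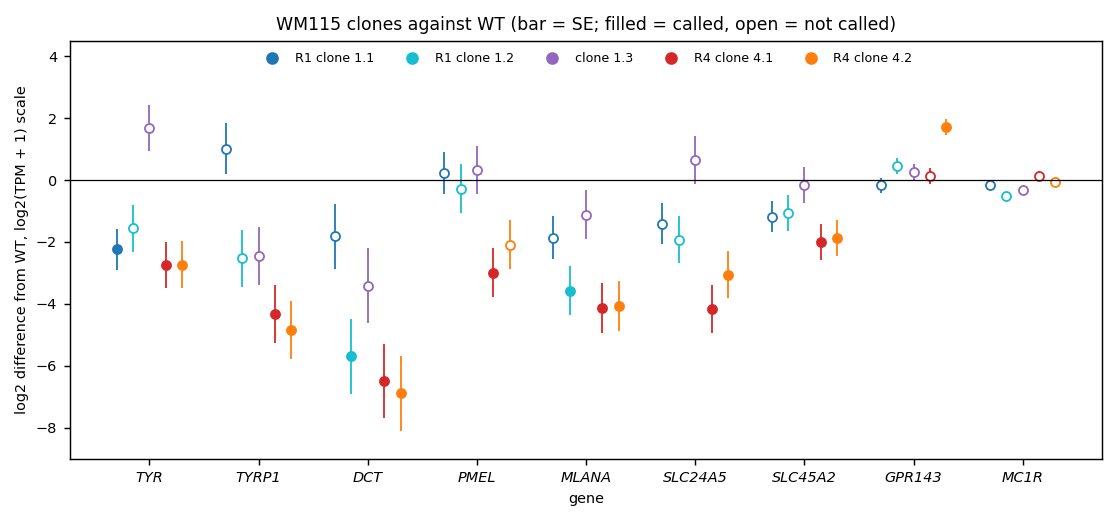
Difference of each WM115 clone from WT on the log2(TPM + 1) scale with its SE, for the 9 members tested, with filled points for calls. The R4 clones lie between -1.87 and -6.89 for the 7 genes from TYR to SLC45A2 on the axis. GPR143, which passed the filter through clone 4.2 alone, is marked as called higher there at 1.71.

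Ratios of the 3 tyrosinase family members were then compared within libraries, since a ratio is not moved by a change of the same fold in all 3. Within WT the folds were unlike: library 4 to library 3 was 20.2 for TYR, 12.0 for TYRP1 and 7.84 for DCT. A joint change in level can therefore move these ratios too. The comparison of ratios was chosen after the values had been seen, and its 8 exact permutation tests were adjusted together. In WM115 WT, the ratio of DCT to TYR lay between 71.6 and 184. It was 349 to 722 in clone 1.1 and 2.74 to 3.33 in clone 1.3. The geometric mean was 4.26-fold higher than WT in clone 1.1 (exact permutation test, two-sided, p 0.0159, adjusted 0.0423). In clone 1.3 it was 42.0-fold lower (exact permutation p 0.0571, adjusted 0.0653). These are the smallest unadjusted p-values that 5 against 4 and 3 against 4 libraries allow. Groups without overlap always give that smallest value, here and in the ratios below. It therefore adds no support to a separation that had already been seen.

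The ratio of TYRP1 to TYR spread further. It was 5.41 to 9.09 in WT, 75.3 to 525.9 in clone 1.1 and 0.269 to 0.404 in clone 1.3. The geometric mean was 31.1-fold higher than WT in clone 1.1 (exact permutation p 0.0159, adjusted 0.0423) and 25.1-fold lower in clone 1.3 (exact permutation p 0.0571, adjusted 0.0653). WT, clone 1.1 and clone 1.3 did not overlap in this ratio. In clone 1.2 the ratio of TYRP1 to TYR was 0.20 in library 1 and 72.2 in library 2, and that of DCT to TYR was 2.37 and 181. Library 1 lay below WT in both ratios, while library 2 lay above WT in the former and within its range in the latter. No test was made, since TYR was listed at 0 in library 3. The ratios to TYR in clone 1.1 rest on TYR values of 0.094 to 0.713 TPM.

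The ratio of DCT to TYRP1 was 13.2 to 20.3 in WT and 1.34 to 4.64 in clone 1.1, a 7.31-fold lower geometric mean (exact permutation p 0.0159, adjusted 0.0423). Clone 4.1 had 3.53 to 8.42, clone 4.2 had 4.18 to 37.3 and clone 1.3 had 6.78 to 11.7. Clones 4.1 and 1.3 lay below WT without overlap, 2.79-fold and 1.67-fold lower (both exact permutation p 0.0571), and clone 4.2 overlapped WT (exact permutation p 0.343). In the R4 clones this ratio rests on TYRP1 values of at most 2.09 TPM.

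**Figure D4:**
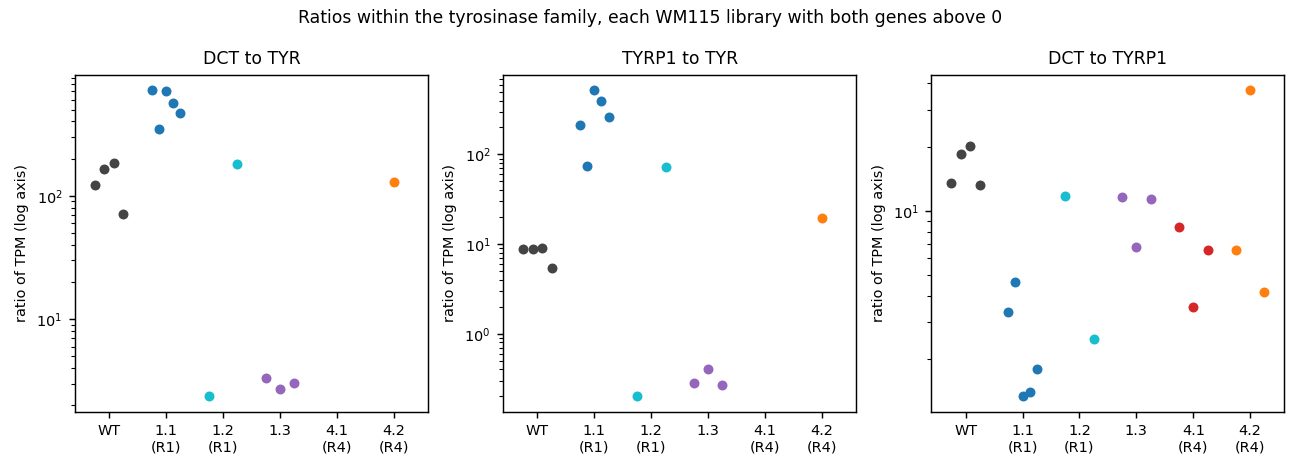
Ratios of TPM within the tyrosinase family in each WM115 library with both genes above 0, by group, on log axes. The ratio of DCT to TYR is 71.6 to 184 in WT, 349 to 722 in clone 1.1 and 2.74 to 3.33 in clone 1.3.

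In A375, only PMEL and MC1R passed the filter, and limma called 0 of them in any clone. Of all genes, 0.731% and 4.01% were called in R1 clones 1.1 and 1.2, and 0.653% and 0.473% in R4 clones 4.1 and 4.2. An unadjusted p under 0.05 was found for 1679, 3530, 1758 and 1297 genes. PMEL had 0.298 to 0.641 TPM and 1.02 to 2.54 TPM in the R1 clones, and 0.524 to 1.38 TPM and 0.247 to 0.602 TPM in the R4 clones, all overlapping WT. Its log2 differences were -0.46, 0.35, -0.14 and -0.52, with 95% intervals whose lowest bound was -1.04 and highest bound 0.83.

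MC1R had 6.84 to 17.6 TPM and 12.0 to 19.8 TPM in the R1 clones of A375, and 15.6 to 21.8 TPM and 12.2 to 18.8 TPM in the R4 clones. Every group overlapped WT, and the log2 differences of -0.36, -0.01, 0.25 and -0.18 had 95% intervals within -0.90 and 0.76. The members under the filter stayed under 1 TPM in every A375 library. OCA2 had 0.028 to 0.069 TPM in the 4 libraries of clone 1.2, all below the WT libraries at 0.486 to 0.78 TPM, and 0.238 to 0.922 TPM in the other clones. TYRP1 and DCT in clone 1.1 and DCT in clone 4.2 also lay below all WT libraries, from WT levels of at most 0.828 and 0.166 TPM. No share of all genes is given for these separations, and none was tested.

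Whether the difference from WT differed between the lines could be tested for the 2 members that passed in both. Libraries were the unit in this fit, which ignores that they share a clone. For PMEL in the R4 clones, the log2 difference from WT in WM115 was lower than that in A375 by -2.21 (SE 0.53, limma adjusted p 0.00560), where 2.71% of 15287 genes were called lower. All 6 WM115 R4 libraries lay below their WT libraries, and in A375 the R4 libraries overlapped theirs. For PMEL in the R1 clones the difference between lines was 0.03 (limma adjusted p 0.982). For MC1R it was -0.15 in the R1 clones and 0.00 in the R4 clones, with limma adjusted p-values of 0.771 and 0.999. With the clone as the unit, R4 against R1 differed between the lines by -2.24 for PMEL (SE 0.59, limma adjusted p 0.9997), which was not called. PMEL was at most 1.62 TPM in A375 WT, with a mean log2(TPM + 1) of 0.98. On this scale PMEL could therefore fall by no more than 0.98 in A375, and the difference between the lines is limited by that.

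With the clone as the unit, 2 R4 clones were set against 2 R1 clones in WM115, and limma called 0 of the 9 members and 0 genes in all, with 969 genes at an unadjusted p under 0.05. The members' log2 differences were -3.82 (SE 1.17) for TYRP1, -2.93 (SE 1.26) for DCT, -2.52 (SE 0.41) for PMEL, -1.94 (SE 0.46) for SLC24A5 and -1.38 (SE 0.60) for MLANA. Limma adjusted p-values were 0.804, 0.878, 0.474, 0.699 and 0.878. The other tested members had -0.84 (TYR), -0.81 (SLC45A2), 0.37 (MC1R) and 0.78 (GPR143). Limma adjusted p-values for TYR, SLC45A2 and MC1R were 0.804 to 0.912. GPR143 passed the filter through clone 4.2 alone, so no p-value is given for it. Its difference was -0.0105 with that clone left out. With the library as the unit, which ignores that libraries share a clone, 4 members were called lower in the R4 clones (PMEL, TYRP1, DCT and SLC24A5). Of all genes, 4.35% were called there in either direction. Across both lines limma called 0 of the 2 members tested and 0 of all 15287 genes, and 658 genes had an unadjusted p under 0.05.

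Other genes of pigment cells were counted in 3 lists. Of 31 tested genes of melanosome biogenesis and transport, 4 were called lower in WM115 clone 4.1 and 2 in clone 4.2, with 0 higher, where 4.37% and 4.08% of all genes were called lower. The list medians were -0.37 and -0.40, beside medians of -0.10 and -0.10 over all genes. The furthest were GPNMB, a PMEL-related glycoprotein, at -3.20 and -2.82, and LYST, a regulator of lysosome-related organelles, at -2.85 and -2.96. In WM115 clone 1.1 only RAB27A, the GTPase that tethers melanosomes to actin motors, was called, where 3.66% of all genes were called lower, at -1.92 (SE 0.29, limma adjusted p 0.000183). In clone 1.2 there were 3, where 3.11% of all genes were called lower, with RAB38 at -1.70 and MYO5A at -1.49 the furthest. Without library 3 of that clone none of the 3 was called by limma, RAB38 being at -0.90 (adjusted p 0.237) and MYO5A at -0.84 (adjusted p 0.192).

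Of 15 tested regulators, 3 were called lower in each R4 clone of WM115, with list medians of -0.33 and -0.37 beside -0.10 and -0.10 over all genes, of which 4.37% and 4.08% were called lower. They included MITF and TFAP2A, a partner of MITF at pigment gene enhancers, at -2.14 and -1.95. In clone 1.2 there were 4, where 3.11% of all genes were, among them the endothelin receptor EDNRB at -3.01 and SOX10 at -2.44. The list median there was -0.62, beside -0.02 over all genes. Without library 3 of that clone 1 regulator was called lower, EDNRB at -1.10 (limma adjusted p 0.0332), and SOX10 at -0.87 (limma adjusted p 0.0123) was under the size set for a call. Of 10 genes of melanosomal ion, copper and cystine handling, 0 were called by limma in any WM115 clone.

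In A375, 1 of 15 tested regulators was called lower in clone 1.1, where 0.545% of all genes were. It was MITF, at -1.31 (SE 0.19, limma adjusted p 0.00165). In A375 clone 1.2 there were 3, where 1.44% of all genes were called lower, with the furthest being TFAP2B at -4.86 and EDNRB at -1.76. MITF was not called in clone 1.2, at -0.41 (limma adjusted p 0.195), and 0 regulators were called by limma in the R4 clones of A375. MITF was at -0.40 in clone 4.1 (limma adjusted p 0.438). In clone 4.2 it was at -0.96 (SE 0.19, limma adjusted p 0.0268), under the size set for a call. From the other 2 lists, limma called LYST (-1.28) and the cystine transporter SLC7A11 (1.46) in clone 1.1, and MLPH, which links RAB27A to myosin, in clones 1.2 (1.23) and 4.1 (-1.44). The 2 members tested stayed uncalled in all of these clones.

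Across the 21 WM115 libraries, the mean log2(TPM + 1) of the 9 tested members ran from 0.95 in library 2 of clone 4.1 to 5.15 in library 4 of WT. Pearson's r with this mean was 0.97 for MITF and 0.37 for SOX10, as a description, since libraries of a group share a clone. The genes outside the members and lists with the highest r among the 16997 tested were TBC1D7 (0.984), LINC00520 (0.977), AC110285.1 (0.970), CAPN3 (0.970) and TBC1D14 (0.965). Of the members themselves, MLANA had the highest r with the mean that contains it (0.943), MC1R had -0.07 and GPR143 -0.48. In A375 the mean holds 2 members only, and the genes most like it over 18 libraries were C1R (0.954), PLTP (0.942), LINC02315 (0.939), SLC50A1 (0.932) and NAT14 (0.930).

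**Figure D5:**
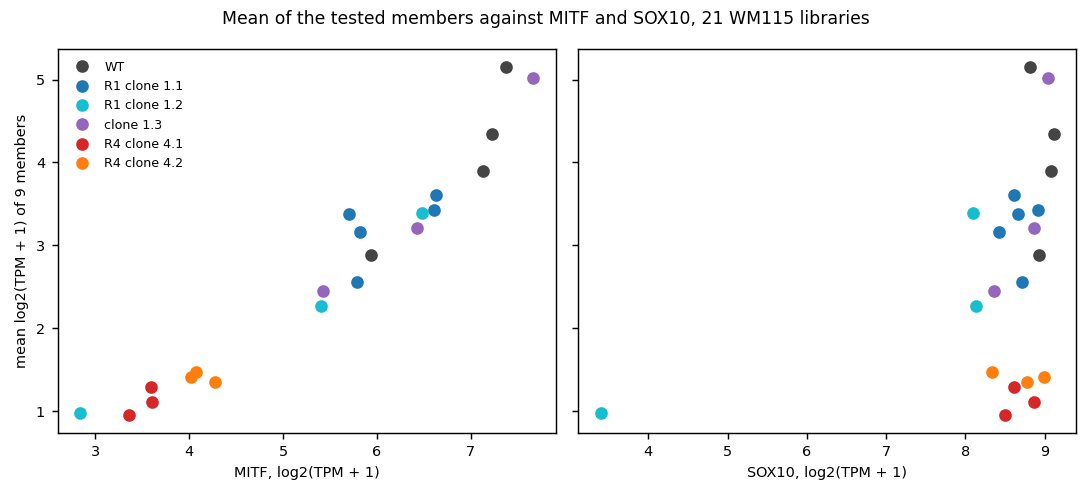
Mean log2(TPM + 1) of the 9 tested members in each of the 21 WM115 libraries against log2(TPM + 1) of MITF (left) and SOX10 (right), by group. The 6 R4 libraries lie at a MITF value of 3.36 to 4.27 and a member mean of 0.95 to 1.47, at SOX10 values of 8.33 to 8.99 that overlap those of WT.

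The transcript table shows which transcripts carried these levels, over libraries with at least 1 TPM of the gene. TYR-201 carried at least 91.2% of TYR, SLC24A5-201 92.6% to 99.7% of SLC24A5 and DCT-201 77.04% to 94.1% of DCT in WM115. MLANA was divided between MLANA-202 (median 49.5%) and MLANA-203 (37.2%), and TYRP1 between TYRP1-201 (47.6%) and TYRP1-203 (38.7%). PMEL-204 carried a median of 63.4% of PMEL in 21 WM115 libraries. In the 7 A375 libraries with at least 1 TPM of PMEL its median was 0%, and the non-coding PMEL-205 had a median of 27.3%. The GPR143 level of clone 4.2 came mainly from GPR143-203, at 77.3% or more. No test was run across transcripts.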

How the data were processed

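Libraries were made from polyadenylated RNA, per the labels' protocols. The authors deposited gene-level and transcript-level TPM, values corrected for transcript length that sum to the same total in each library. DRAGEN and GRCh38 are named in the submitters' processing notes, with no role or version. The annotation release, the strandedness of counting and read counts are not given in the sources used here, so depth is unknown, no counting interval was computed, and a gene at 0 is called listed at 0. Each table has 6 columns that match no sample, which were not used. The 200 repeated lines of the gene table were used once.

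Groups were line and clone. Genes with at least 1 TPM in at least 3 libraries of a line were tested with limma 3.58.1 (R 4.3.3) on log2(TPM + 1), with 1 coefficient per group over all groups of a line, a variance trend and Benjamini-Hochberg adjustment over all genes tested. A call needed an adjusted p under 0.05 and a log2 difference of at least 1. The code was tested on simulated data. Comparisons of R4 with R1 clones used clone means. Differences between lines in clones against WT used the libraries of both lines. Ratios were tested with exact permutation tests (SciPy 1.17.1). A library was in the high mitochondrial set above 2.5% in A375 and 7.5% in WM115. Promoter stretches are from RefSeq, GRCh38.p14, and overlapping genes and exons from GENCODE 29, which may not be the authors' annotation.

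The members and lists were chosen with earlier results of these data known. All 10 members are named, and SOX10, MITF, at most 2 called genes per list and clone, and the 5 genes with the highest r per line. The level of 1 lineage marker is not reported here, and the summed marker level is without it. CDK2, TCF25 and AC092143.1 are named as overlapping genes, chosen after their values were seen. Same-numbered libraries deviated together in 1 comparison, A375 clone 4.1 against WT (r 0.326 to 0.776 in 4 of 4 pairs), where the replicate block changed no call of a member.

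Alternatives were a pseudocount of 0.1, a mean TPM of at least 5, no filter, quantile normalization, median-of-ratios scaling, no minimum difference, no variance trend, the mitochondrial set as a term or as a subset, only the groups compared, the replicate block, leaving out each library or clone (for the listed genes only library 3 of WM115 clone 1.2, chosen after seeing the data), the library as unit and clone 1.3 counted to either region.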

Additional observations from a re-analysis of the deposited data

Results flagged for a closer look

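MLANA in WM115 clone 1.1 had 0.658 TPM in library 3 and 5.15 to 6.85 TPM in the other 4 libraries, a gap of a size that chance gives in about 5% of groups. It was the only such case among 21 combinations of gene and group examined. The same library was the lowest of its group for TYR, TYRP1, DCT, SLC45A2 and SLC24A5.

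The log2 difference of PMEL from WT in the R4 clones differed between the lines by -2.21 (limma adjusted p 0.00560), being lower in WM115. Libraries, not clones, were the unit of that fit. PMEL lay between 8.15 and 41.1 TPM in WM115 WT and between 0.291 and 1.62 TPM in A375 WT. The mean log2(TPM + 1) of PMEL in A375 WT was 0.98, which is the most it could fall there on this scale. The cause was not tested.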

How the results depend on the processing

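Counts of members called in the 4 A375 clones, in WM115 clone 1.3 (0 in each) and in WM115 clone 4.1 (7, range 6 to 7) kept within 1.5 times their value under all alternatives run. In clone 1.1 the count of 1 became 0 with no filter, with the mitochondrial set as a term and within the high mitochondrial set, 3 when only the 2 groups were fitted, 4 with the replicate block, and 0 to 3 with a library left out. It was 2 without library 3 of clone 1.2 or of clone 1.3, alternatives added after seeing the data. In clone 1.2 the count of 2 became 1 with the replicate block (MLANA) and 2 to 4 with a library left out (4 without its library 1 or 2 or WT library 3). In clone 4.2 the count of 7, which includes GPR143, became 3 within the high mitochondrial set. With a library left out it was 4 to 8 (4 without library 2 of the clone). With the library as unit, R4 against R1 gave 4 members in WM115 and 1 (PMEL) across both lines. The block changed no other count by over 1.5 times, and library numbers pair the samples in A375 clone 4.1 only. The subset by mitochondrial share was not run for WM115 clone 4.1, which has 1 library in the high set.

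Some uncalled differences changed sign. With a library left out, MC1R ranged from -0.592 to 0.0327 in A375 clone 1.1, from -0.111 to 0.127 in A375 clone 1.2 and from -0.134 to 0.0078 in WM115 clone 4.2, where it was 0.0468 with median-of-ratios scaling and 0.0517 with quantile normalization. PMEL ranged from -0.077 to 0.657 in WM115 clone 1.1, from -1.16 to 0.168 in clone 1.2 (0.156 with the replicate block) and from -1.04 to 1.02 in clone 1.3, where the lowest was without library 3. SLC45A2 in clone 1.3 ranged from -0.847 to 0.374 and was 0.295 with the replicate block. With a clone left out, R4 against R1 ranged from -0.681 to 0.127 for PMEL in A375 and from -0.0105 to 1.56 for GPR143 in WM115, the lowest without clone 4.2. TYR in WM115 became 0.638 there with clone 1.3 counted to R4. The causes were not tested. Of the alternatives for single members, 26 gained a call and 24 lost one. SLC45A2 lost its call most often, in 8 alternatives in clone 4.2 and 5 in clone 4.1. Without counts, low levels such as those of GPR143 and SLC45A2 have an unknown precision.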
